A study of Rattus norvegicus with 16 samples.

Results

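The platelet-derived growth factor (PDGF) system was followed through 6 genes in rat tendons: the 4 ligand genes Pdgfa (ENSRNOG00000001312), Pdgfb (ENSRNOG00000017197), Pdgfc (ENSRNOG00000010695) and Pdgfd (ENSRNOG00000029148), the receptor gene Pdgfra (ENSRNOG00000002244) and the receptor-like gene Pdgfrl (ENSRNOG00000010832). They were taken by gene name from a table of 23285 genes, and all 6 were among the 16948 genes that passed a filter on low counts. Total RNA of Sprague Dawley rats was sequenced from 2 hindlimb tendons, Achilles and patellar, and from 2 forelimb sites, the forepaw flexors and the supraspinatus at the shoulder, with 4 libraries per tendon and 16 in all. No treatment or genotype is named in the labels, and the series compared each tendon with each of the others. Each library carries a rat number, 1 to 4, yet nothing in the labels ties the libraries to separate animals. The p-values therefore measure only the spread between these samples, which may not come from separate animals.

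PDGF ligands are secreted dimers that bring receptor chains together on the cell surface and start growth and migration of mesenchymal cells. The A and B chains are cut to their active form inside the cell by furin-like convertases. The C and D chains leave the cell with an inhibitory CUB domain, which the plasminogen activators remove outside it, tissue-type activator acting on C and urokinase on D. The alpha receptor, encoded by Pdgfra, binds A, B and C chains and marks fibroblasts and mesenchymal progenitors of tendon and muscle. The beta receptor, encoded by Pdgfrb, binds B and D chains and is known from pericytes and from fibroblasts. Pdgfrl encodes a secreted protein that resembles the outer part of the receptor and has no kinase.

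Levels are given as CPM, counts scaled to the library total after adjustment by the TMM method. They are compared between tendons and never between genes, because transcript length was not taken into account. Differences between tendons are log2 fold changes with their SE, tested in edgeR by quasi-likelihood on all 16 libraries at once, and p-values were adjusted over all genes tested by the Benjamini-Hochberg method. Library totals ran from 63397591 to 102491699 counts, and 3 counts corresponded to 0.0266 to 0.0485 CPM. The lowest count of any of the 6 genes in a library was 212, for Pdgfb, so depth limited Pdgfb more than the others.

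The tendons differed in the other tissue they carried, which bears on every comparison below. The tendon genes Scx, a transcription factor of tendon cells, and Tnmd, tenomodulin, were present in all 4 tendons, with means of 36.0 and 535 CPM in Achilles, 37.1 and 274 in flexor, 36.9 and 479 in patellar and 19.4 and 765 CPM in supraspinatus tendon. Markers of tendon fibroblasts (11 genes, among them Col1a1, Col3a1 and Dcn) were all detected in each tendon, with a summed level of 99520 to 162500 CPM in Achilles, 75380 to 155200 in patellar, 55590 to 76960 in flexor and 54960 to 104000 CPM in supraspinatus libraries. Col1a1, with tendon means from 22730 (flexor) to 85680 CPM (Achilles), was the largest single part of this sum. The genes of the list did not all follow it. Between flexor and patellar tendon 4 of the 11 passed as higher in the flexors, Dcn and Comp among them. Col1a1 and Col3a1 were the 2 that passed as lower. The median log2 difference of the list, flexor minus patellar, was 0.49. The 22 skeletal muscle markers summed to 133600 to 250100 CPM in supraspinatus libraries, 16480 to 61390 in flexor, 379 to 11820 in Achilles and 358 to 33320 CPM in patellar libraries, the highest of the last being patellar 1. Endothelial markers (12 genes) summed to 1813 to 2886 CPM in patellar and 1493 to 2094 in Achilles libraries, against 496 to 865 in flexor and 719 to 1439 CPM in supraspinatus libraries. The 10 adipocyte markers summed to 3006 to 11100 and 4683 to 12300 CPM in Achilles and patellar libraries and to no more than 874 CPM in any forelimb library. Schwann cell markers stood at 8210 CPM in Achilles 1 but at 1186 to 1423 CPM in the other Achilles libraries. No marker on these lists was at 0 in every library of a tendon. In bulk tissue fewer cells of a type and less RNA per cell cannot be told apart.

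**Figure D1:**
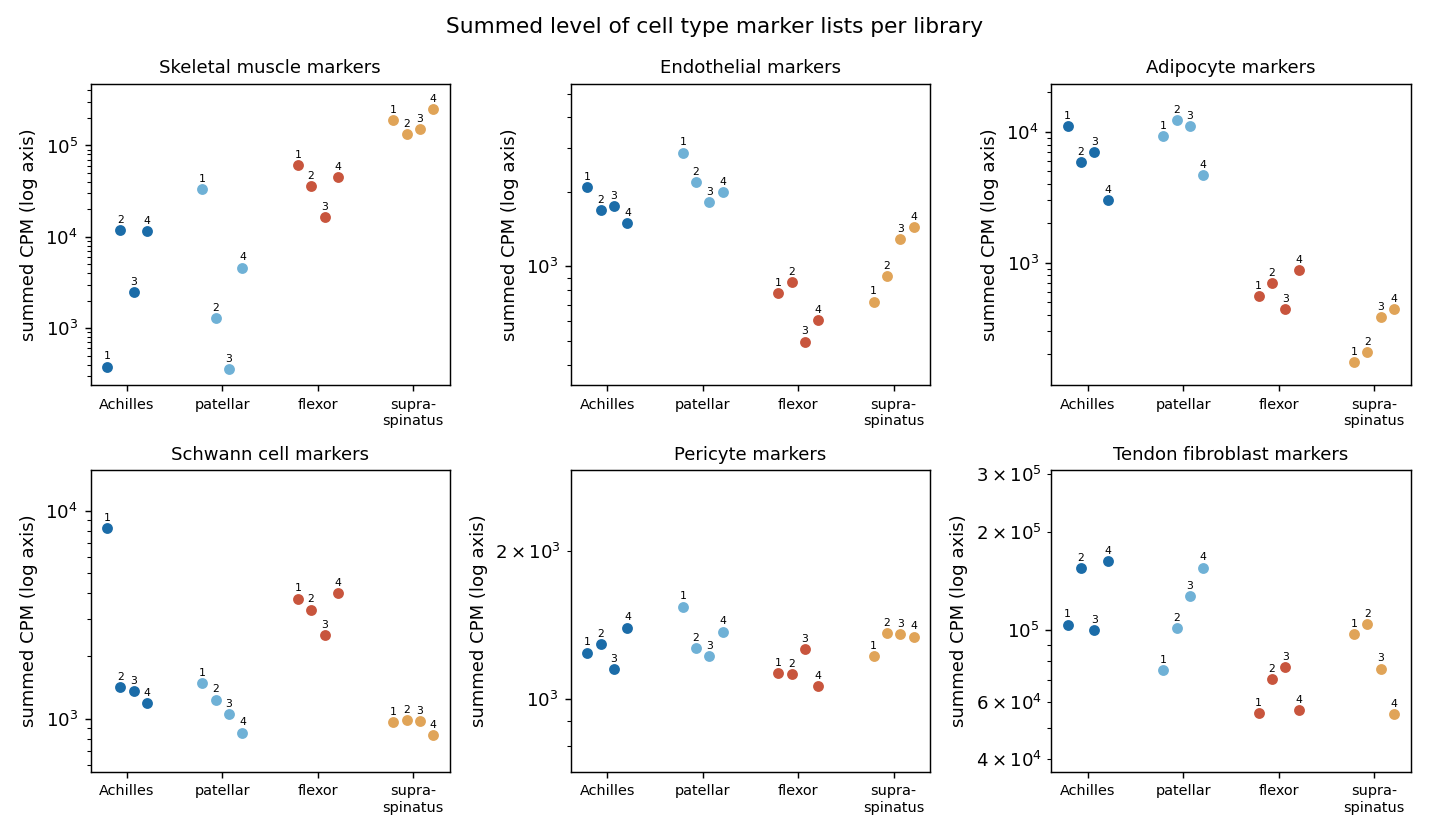
Summed CPM (log axis) of 6 lists of cell type markers in each of the 16 libraries, 1 point per library with its number, coloured by tendon. Supraspinatus libraries lead in muscle markers at 133600 CPM or more, and Achilles 1 stands apart in Schwann cell markers at 8210 CPM.

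Among the 4 tendons 5 of the 6 genes differed, where 75.6% of all genes tested did, so that this count is not particular to them. The span from lowest to highest tendon was widest for the CUB-domain ligands, 2.73-fold for Pdgfd and 2.49-fold for Pdgfc. It was 1.70-fold for Pdgfrl, 1.65-fold for Pdgfra and 1.63-fold for Pdgfb. Pdgfa spanned 1.16-fold and did not pass. The median span of the 6 genes was 0.74 on the log2 scale, against 1 over all genes tested.

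**Figure D2:**
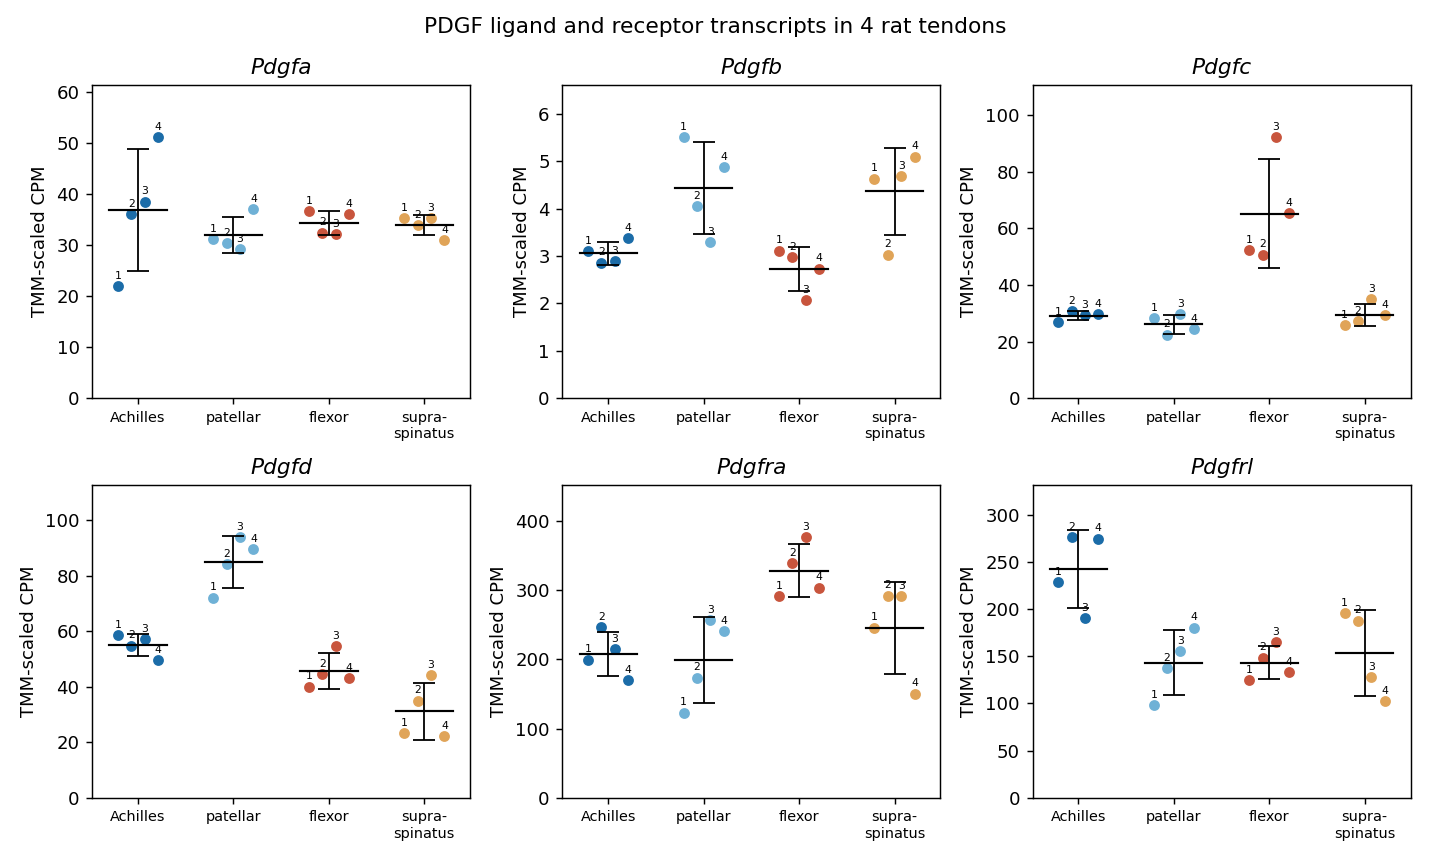
TMM-scaled CPM (linear axes from 0) of the 6 genes in each library, numbered by replicate, with the mean and SD of 4 libraries per tendon. Pdgfc is high in the 4 flexor libraries at 50.8 CPM or more, and Pdgfd in the 4 patellar libraries at 72.1 CPM or more.

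Pdgfa and Pdgfb encode the classical ligand chains and are shown first with the sequence before their annotated starts. Pdgfa had the most even levels of the ligand genes and the levels of Pdgfb differed, and both stretches hold 1 GC box, the binding motif of Sp and Klf factors, in capitals. The stretches lie outside the gene on every RefSeq transcript of the rat build GRCr8, Pdgfa at chr12:20759116-20759365 on the plus strand and Pdgfb at chr7:113438344-113438593 on the minus strand, and read 5′ to 3′ along each gene.
Pdgfa: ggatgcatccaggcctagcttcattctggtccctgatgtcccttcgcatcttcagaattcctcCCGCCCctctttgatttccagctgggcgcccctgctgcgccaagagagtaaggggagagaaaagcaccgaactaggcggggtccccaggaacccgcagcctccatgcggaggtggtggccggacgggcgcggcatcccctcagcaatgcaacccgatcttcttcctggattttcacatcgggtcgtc
Pdgfb: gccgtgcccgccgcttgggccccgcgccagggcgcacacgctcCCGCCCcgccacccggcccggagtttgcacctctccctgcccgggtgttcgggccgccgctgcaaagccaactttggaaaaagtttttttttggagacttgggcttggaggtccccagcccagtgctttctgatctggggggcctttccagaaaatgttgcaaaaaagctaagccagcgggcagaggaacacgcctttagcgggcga
Of the 6 genes 5 had an entry in the RefSeq promoter table. A GC box (GGGCGG on either strand) occurred in the 250 bases before the start in 30.5% of 33469 promoters, and among the 5 genes in those of Pdgfa, Pdgfb and Pdgfd, once each. An AP-1 motif (TGANTCA) occurred in 6.34% of promoters and once in that of Pdgfra. Unlike the stretches printed above, these windows can reach into the annotated gene. Only 77 bases of the Pdgfd window lie outside the gene, with 0 GC boxes in them. For Pdgfra 162 bases lie outside, and the AP-1 match is not among them. For Pdgfc 0 bases lie outside. A TATA box (TATAAA, 12.9% of promoters) and an Egr1 motif (GCGNGGGCG, 4.29%, whose letters can overlap a GC box) had no match in the 5 windows. Such matches describe letters only and were not tested against the levels.

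Pdgfa, the A chain that binds the alpha receptor alone, did not pass the test among the 4 tendons (adjusted p = 0.726). It stood at 22, 36.1, 38.5 and 51.2 CPM in Achilles libraries 1 to 4, the widest spread of any of the 4 tendons, with Achilles 1 lowest and Achilles 4 highest of all 16 libraries. The other libraries lay between 29.2 and 37 CPM in patellar, 32.1 and 36.6 in flexor and 31 and 35.3 CPM in supraspinatus tendon. No pair of tendons passed, the largest difference being Achilles minus patellar at 0.21 ± 0.18 (adjusted p = 0.518), and the means of 36.9, 34.3, 33.9 and 32 CPM in Achilles, flexor, supraspinatus and patellar tendon did not differ beyond their spread. Leaving out Achilles 1 gave a difference among the tendons (a span of 0.39, adjusted p = 0.041), with Achilles minus supraspinatus at 0.31 (adjusted p = 0.0471). Leaving out Achilles 4 instead turned Achilles minus supraspinatus to -0.07 (adjusted p = 0.728) and Achilles minus flexor to -0.09 (adjusted p = 0.66). On library totals without TMM Achilles minus supraspinatus was at 0.53 (adjusted p = 0.0202). Schwann cell markers were high in Achilles 1, and their part in the result was not tested.

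Pdgfb, the B chain made by endothelial cells and platelets, was the lowest-counted of the 6 genes, at 212 to 453 counts per library. It stood at 5.51, 4.06, 3.3 and 4.87 CPM in patellar libraries 1 to 4 and at 4.63, 3.03, 4.69 and 5.1 CPM in supraspinatus libraries. In flexor libraries it was at 3.11, 2.97, 2.06 and 2.73 CPM, and in Achilles libraries at 3.1, 2.86, 2.89 and 3.38 CPM. Every patellar library was above every flexor library, whereas supraspinatus 2 lay within the flexor and Achilles range. Flexor minus patellar was -0.71 ± 0.20 (adjusted p = 0.00768), flexor minus supraspinatus -0.68 ± 0.20 (adjusted p = 0.00995) and Achilles minus supraspinatus -0.51 ± 0.19 (adjusted p = 0.0402). The neighbours in the order, patellar and supraspinatus (0.02 ± 0.19) and Achilles and flexor (0.17 ± 0.19), did not differ beyond their spread, and Achilles minus patellar did not pass (-0.54 ± 0.19, adjusted p = 0.122).

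Both supraspinatus differences of Pdgfb lost their call on library totals without TMM and with muscle as a covariate. On library totals without TMM, flexor minus supraspinatus was -0.32 (adjusted p = 0.185) and Achilles minus supraspinatus -0.09 (adjusted p = 0.709), and the latter lost its call in 10 of 26 alternatives, among them the fits without Achilles 1, 2 or 3 or supraspinatus 1, 3 or 4 (adjusted p = 0.0635 to 0.137), and turned to 0.03 when the mean log2 level of the muscle markers in each library was added to the fit as a covariate. That covariate also ended the call in flexor minus supraspinatus (-0.43, adjusted p = 0.163). The muscle score and the supraspinatus tendon largely coincide, so that they cannot be told apart in that fit. Of all genes it left 1716 called in Achilles minus supraspinatus, from 8497. Endothelial markers, as summed levels, were highest in patellar and lowest in flexor libraries, as Pdgfb was, but supraspinatus libraries, with Pdgfb at the patellar level, had 1089 CPM on average against 2221 in patellar and 1757 CPM in Achilles libraries. Platelet markers (6 genes, led by Pf4, the platelet factor 4 gene) summed to 22.6 to 45.9 CPM in supraspinatus and 33.2 to 69.9 CPM in flexor libraries, with 35.2 to 59.6 in patellar and 35.4 to 59.8 CPM in Achilles libraries. Pf4 made up most of that sum and did not pass in flexor minus patellar (0.22 ± 0.30, adjusted p = 0.56). The platelet integrin gene Itga2b and the glycoprotein gene Gp9 stood at means of 4.58 and 1.14 CPM in patellar and 3.10 and 0.478 CPM in flexor tendon. Both were lower in the flexors (-0.57 ± 0.20, adjusted p = 0.0277, and -1.25 ± 0.28, adjusted p = 0.00196), as Pdgfb was. They were the 2 called of 5 platelet genes tested in that pair, where 50.5% of all genes were called. Without a call, Gp1ba was higher in the flexors, as Pf4 was (0.83 ± 0.55, adjusted p = 0.222), and Treml1 lower (-0.92 ± 0.61, adjusted p = 0.223). Gp9, at 0.579 CPM in supraspinatus tendon, was also higher in patellar (0.98 ± 0.28, adjusted p = 0.00853) and Achilles tendon (0.71 ± 0.28, adjusted p = 0.0469) than there, whereas Pdgfb was not. The part of endothelial cells and platelets in the Pdgfb result was not tested.

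Pdgfc, the C chain that binds the alpha receptor, was highest in the forepaw flexors. It stood at 52.4, 50.8, 92.3 and 65.5 CPM in flexor libraries 1 to 4. The other 12 libraries lay between 22.4 and 35 CPM, with means of 29.1 ± 1.60 (SD, n = 4) in Achilles, 29.4 ± 4.00 in supraspinatus and 26.1 ± 3.36 CPM in patellar tendon. The flexor libraries overlapped with none of them, and flexor 3 was well above the other flexor libraries. Flexor tendon was higher than patellar tendon by 1.32 ± 0.17 (adjusted p = 2.05e-05), than supraspinatus by 1.15 ± 0.17 (adjusted p = 7.63e-05) and than Achilles tendon, where Achilles minus flexor was -1.17 ± 0.17 (adjusted p = 6.93e-05). All 3 differences kept their direction and their call in each of 26 alternatives, among them the muscle covariate and the fit without flexor 3. Achilles, supraspinatus and patellar tendon did not differ from each other in Pdgfc beyond their spread.

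Genes whose levels ran most like Pdgfc were Zmiz1, a transcriptional coregulator, Slc6a6, the taurine transporter, and Vim, the intermediate filament vimentin of mesenchymal cells. Their log2 levels, each centred on its own mean, differed from those of Pdgfc by a root mean square of 0.163, 0.191 and 0.192 over the 16 libraries. Vim, for one, was at 4748 CPM in flexor tendon, against 1944 to 2673 CPM elsewhere.

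Pdgfd, the D chain that binds the beta receptor, was highest in patellar and lowest in supraspinatus tendon. It stood at 72.1, 84.3, 94 and 89.6 CPM in patellar libraries 1 to 4 and at 58.8, 54.9, 57.2 and 49.5 CPM in Achilles libraries. It was at 40.1, 44.6, 54.8 and 43.3 CPM in flexor libraries and at 23.3, 35, 44.1 and 22.3 CPM in supraspinatus libraries. All patellar libraries were above all others, and supraspinatus libraries overlapped with flexor but not with Achilles libraries.

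Patellar tendon exceeded supraspinatus by 1.45 ± 0.19 on the log2 scale (adjusted p = 2.05e-05), and flexor minus patellar was -0.90 ± 0.18 (adjusted p = 0.00104). Achilles exceeded supraspinatus by 0.82 ± 0.18 (adjusted p = 0.00194) and flexor exceeded supraspinatus by 0.55 ± 0.18 (adjusted p = 0.0228). Achilles minus patellar was -0.63 ± 0.18 without overlap between libraries but did not pass (adjusted p = 0.0634), and it passed with DESeq2 (-0.62, adjusted p = 0.0158) and limma-voom (-0.62, adjusted p = 0.0471) and without patellar 1 (-0.70, adjusted p = 0.0418), supraspinatus 3 (-0.62, adjusted p = 0.0289) or supraspinatus 4 (-0.62, adjusted p = 0.039). Achilles and flexor, neighbours in the order, did not differ beyond their spread (0.27 ± 0.18, adjusted p = 0.244).

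Within some tendons the libraries lowest in Pdgfd carried the most muscle marker RNA, namely supraspinatus 1 and 4 (188700 and 250100 CPM, against 133600 and 151000 in supraspinatus 2 and 3), flexor 1 (61390 CPM) and patellar 1 (33320 CPM). Between tendons, patellar tendon had more muscle marker RNA than Achilles tendon on average (9897 against 6579 CPM) and also more Pdgfd. That patellar mean rested largely on patellar 1. The other patellar libraries had 358 to 4605 CPM, and Achilles libraries 379 to 11820 CPM. The part of muscle in the Pdgfd level was not tested beyond the fit with a covariate. With the muscle score as a covariate the span among tendons was 0.86 (adjusted p = 0.0451) and none of the 4 differences passed, patellar minus supraspinatus being 0.86 (adjusted p = 0.112) and flexor minus patellar -0.57 (adjusted p = 0.0755). The muscle score and the supraspinatus tendon largely coincide, so that they cannot be told apart in this fit, and flexor minus supraspinatus also lost its call without flexor 2 (0.52, adjusted p = 0.0533) or flexor 3 (0.41, adjusted p = 0.101). On library totals the 4 differences kept their call, flexor minus supraspinatus at 0.87 (adjusted p = 0.00358). Genes with the levels most like those of Pdgfd were Trim2, a ubiquitin ligase gene, Ccdc152 and Pik3cg, a catalytic phosphoinositide 3-kinase subunit of leukocytes, at root mean square differences of 0.199, 0.201 and 0.208.

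The C and D chains differed from each other in their pattern, which shows in the ratio of Pdgfc to Pdgfd counts within each library, a value free of scaling between libraries. The ratio was 1.31, 1.14, 1.68 and 1.51 in flexor libraries 1 to 4 and 0.392, 0.266, 0.315 and 0.271 in patellar libraries. Achilles libraries had 0.457, 0.558, 0.513 and 0.598, and supraspinatus libraries 1.11, 0.781, 0.794 and 1.32. Patellar, Achilles and the pair of forelimb tendons formed separate ranges, and flexor overlapped with supraspinatus. The ratio was chosen after the levels had been seen and was not tested.

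Pdgfra, the alpha receptor of fibroblasts, was highest in the flexors. It stood at 292, 338, 377 and 303 CPM in flexor libraries 1 to 4, at 246, 292, 291 and 150 CPM in supraspinatus, at 199.5, 247, 215 and 169 CPM in Achilles and at 123, 173, 256 and 241 CPM in patellar libraries. Every flexor library was above every Achilles and patellar library, and flexor 1 overlapped with supraspinatus 2, which it equalled within 1 CPM. Achilles minus flexor was -0.66 ± 0.23 (adjusted p = 0.031) and flexor minus patellar 0.72 ± 0.23 (adjusted p = 0.0185), while flexor minus supraspinatus did not pass (0.42 ± 0.23, adjusted p = 0.153). Supraspinatus, Achilles and patellar tendon, neighbours in the order, did not differ beyond their spread.

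The Pdgfra calls were close to the threshold. The difference among the 4 tendons (adjusted p = 0.0362) was lost in 9 of 25 alternatives, with adjusted p-values of up to 0.123, 8 of them fits without Achilles 1, 3 or 4, any flexor library or patellar 2. Achilles minus flexor was lost in 7 of 26 alternatives, on library totals and without Achilles 1, 3 or 4 or flexor 2, 3 or 4, with adjusted p-values of up to 0.0911. Flexor minus patellar was lost without flexor 3 (0.62, adjusted p = 0.0572), patellar 1 (0.52, adjusted p = 0.057) or patellar 2 (0.64, adjusted p = 0.0596). On library totals flexor minus supraspinatus passed (0.74, adjusted p = 0.0222). The lowest Pdgfra levels of their tendons were in patellar 1, flexor 1 and supraspinatus 4. These libraries also had the most muscle marker RNA of their tendons, at 33320, 61390 and 250100 CPM. In Achilles tendon the library with the most muscle marker RNA, Achilles 2 at 11820 CPM, had instead the highest Pdgfra and Pdgfrl levels. Achilles 4, close to it in muscle marker RNA at 11640 CPM, had the lowest Achilles level of Pdgfra, 169 CPM, but 275 CPM of Pdgfrl. Pdgfrl was lowest in patellar 1, flexor 1 and supraspinatus 4 as well, whereas Pdgfrb had its highest patellar level, 311 CPM, in patellar 1. With the muscle covariate Achilles minus flexor was -0.95 (adjusted p = 0.0183) and flexor minus patellar 1.12 (adjusted p = 0.016) for Pdgfra, so that both calls were kept. Markers of tendon sheath and universal fibroblasts (11 genes) summed to 2855 to 3728 CPM in flexor and 2036 to 2685 CPM in supraspinatus libraries. Achilles libraries had 1592 to 3164 and patellar libraries 1223 to 1610 CPM. In flexor minus patellar 5 of these 11 genes were higher and 2 lower, against 25.8% and 24.7% of all genes. Their part in the Pdgfra and Pdgfc levels was not tested.

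Pdgfrl, the receptor-like gene, was highest in the Achilles tendon. It stood at 229, 277, 190.2 and 275 CPM in Achilles libraries 1 to 4, at 125, 149, 165 and 134 CPM in flexor, at 98.5, 137, 156 and 180.3 CPM in patellar and at 195, 188, 128 and 103 CPM in supraspinatus libraries. Achilles libraries were all above flexor and patellar libraries, whereas supraspinatus 1 was above Achilles 3. Achilles exceeded flexor by 0.76 ± 0.22 (adjusted p = 0.00983) and supraspinatus by 0.66 ± 0.22 (adjusted p = 0.0199). Achilles minus patellar was as large, 0.76 ± 0.22, but did not pass (adjusted p = 0.0567); it passed with DESeq2 (0.77, adjusted p = 0.00893) and without supraspinatus 4 (0.77, adjusted p = 0.0345). The other tendons, with means of 153, 143 and 143 CPM in supraspinatus, flexor and patellar tendon, did not differ beyond their spread. The difference from supraspinatus was lost without Achilles 2 (0.57, adjusted p = 0.0611), Achilles 4 (0.60, adjusted p = 0.0511) or supraspinatus 3 (0.58, adjusted p = 0.0585) and with the muscle covariate (0.48, adjusted p = 0.483), which also ended the call against flexor (0.68, adjusted p = 0.0728). As for Pdgfd, the muscle score and the supraspinatus tendon cannot be told apart in that fit. On library totals the difference from supraspinatus was 1.06 (adjusted p = 0.000737).

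Beside the alpha receptor, the beta receptor gene Pdgfrb did not pass among the tendons (adjusted p = 0.603), with means of 251 ± 56.0 CPM in Achilles, 229.5 ± 58.2 in patellar, 219 ± 42.5 in supraspinatus and 208 ± 27.9 CPM in flexor tendon (SD, n = 4). The ratio of Pdgfra to Pdgfrb counts was 1.57, 1.68, 1.52 and 1.56 in flexor libraries 1 to 4 and 0.615, 0.947, 0.969 and 0.865 in Achilles libraries. It ran from 0.394 in patellar 1 to 1.42 in patellar 3 and from 0.661 in supraspinatus 4 to 1.56 in supraspinatus 1. Flexor libraries were thus close to each other, patellar and supraspinatus libraries far apart. The ratio of Pdgfrl to Pdgfra counts was 0.429 to 0.44 in the 4 flexor libraries and 0.886 to 1.62 in Achilles libraries. Patellar libraries had 0.607 to 0.802 and supraspinatus libraries 0.439 to 0.795, so that Achilles libraries were above all others. These ratios too were chosen after the levels had been seen and were not tested.

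**Figure D3:**
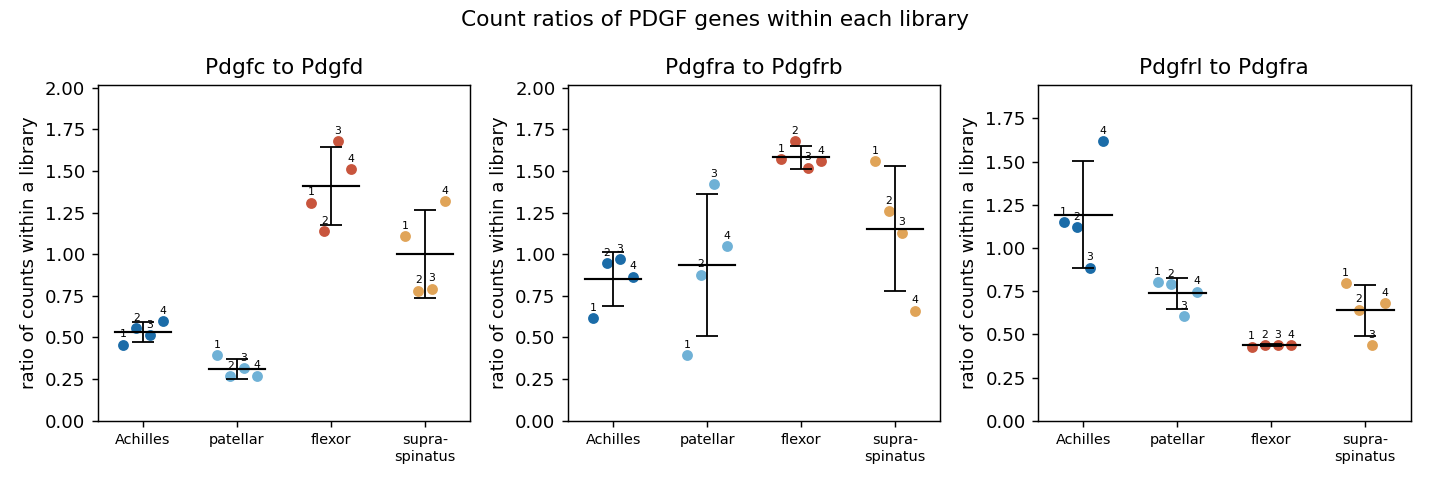
Ratio of counts of 2 PDGF genes within each library (linear axes from 0), numbered by replicate, with the mean and SD of 4 libraries per tendon. The Pdgfc to Pdgfd ratio is 0.392 or lower in the 4 patellar libraries and 1.14 or higher in the 4 flexor libraries.

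By pair of tendons, flexor against patellar separated most of the 6 genes. In flexor minus patellar 4 were called where 50.5% of all genes were, Pdgfc and Pdgfra higher in the flexors (25.8% of all genes were higher) and Pdgfb and Pdgfd lower (24.7% were lower). Each of these 4 was without overlap between libraries, as 48.8% of all genes were.

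Achilles minus flexor had 3 calls where 47.7% of all genes were called, with Pdgfrl higher (23.5% of all genes) and Pdgfc and Pdgfra lower (24.1%) in Achilles tendon. These 3 genes were also the ones without overlap, as 46.5% of all genes were. Achilles minus supraspinatus had 3 calls against 50.1% of all genes, with Pdgfd and Pdgfrl higher (25.4%) and Pdgfb lower (24.7%), and 1 gene, Pdgfd, was without overlap, against 44.2% of all genes. Flexor minus supraspinatus had 3 calls against 47.7% of all genes, with Pdgfc and Pdgfd higher (23.4%) and Pdgfb lower (24.3%), and 1 gene, Pdgfc, was without overlap, against 48.1%.

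The last 2 pairs, both with a hindlimb tendon on the first side, had 1 call or none. Patellar minus supraspinatus had 1 call against 56.4% of all genes, Pdgfd higher (28.8%) and 0 lower (27.5%), and Pdgfd alone of the 6 was without overlap, against 48.3%. Achilles minus patellar had 0 calls in edgeR's test against 5.16% of all genes (3.1% higher and 2.06% lower), although Pdgfd and Pdgfrl were without overlap, as 12.5% of all genes were. In that pair DESeq2 called 2 of the 6 genes and limma-voom 1. DESeq2 also called more of all genes, 1977 against 874 in edgeR's test. Shares near the background say nothing particular about these genes, and the pairs share libraries.

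**Figure D4:**
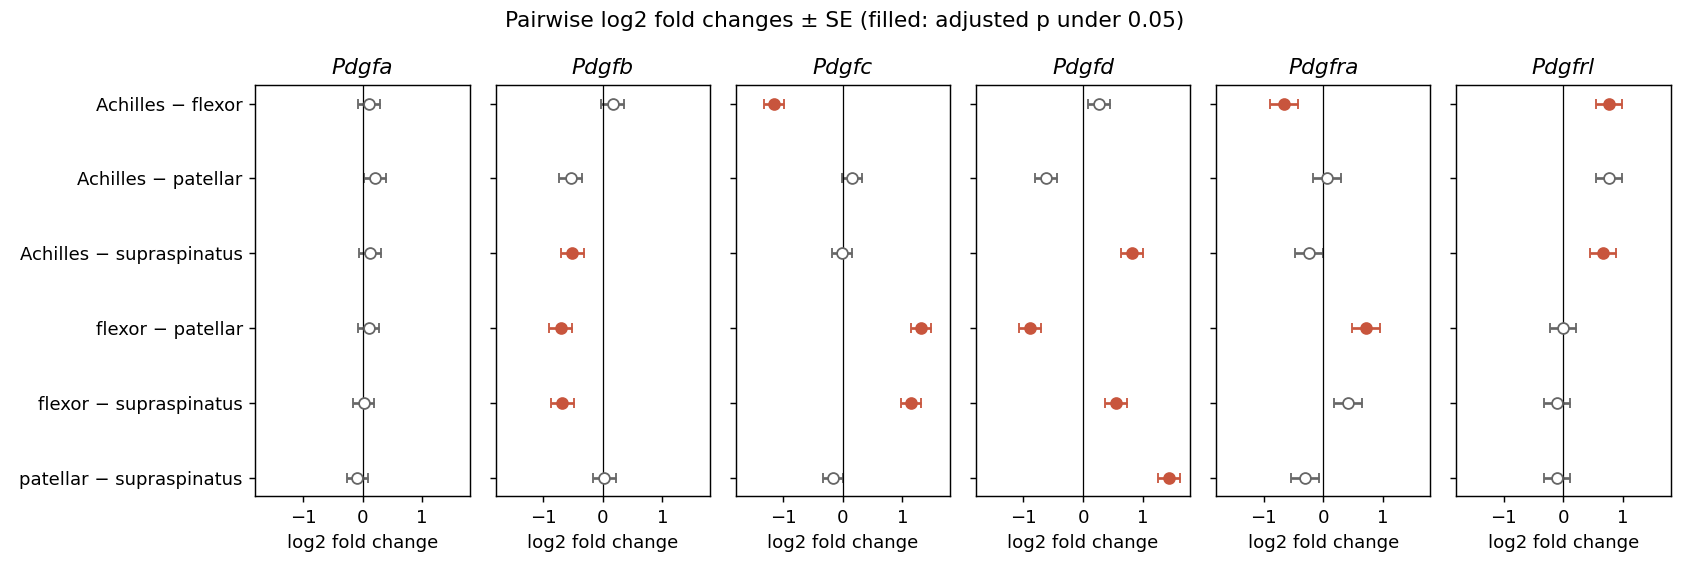
Log2 fold change ± SE of the 6 genes in the 6 pairs of tendons, first tendon minus second, 1 panel per gene, filled where the adjusted p was under 0.05. Pdgfc is called in the 3 pairs with the flexors, and Pdgfd reaches 1.45 in patellar minus supraspinatus.

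The proteins that cut and hold PDGF ligands were read from a list of 13 genes, of which 12 passed the count filter. All 12 differed among the tendons, against 75.6% of all genes, with a median span of 1.36 on the log2 scale. Furin, the convertase of the A and B chains, stood at 75.9 ± 9.47 CPM (SD, n = 4) in flexor tendon and between 29.8 and 40 CPM in the others, and flexor minus patellar was 1.32 ± 0.15 (adjusted p = 6.38e-06). Plau, urokinase, the activator of the D chain, was lowest in supraspinatus tendon at 63.8 CPM, against 221 in Achilles, 208 in patellar and 189 CPM in flexor tendon, and patellar exceeded supraspinatus by 1.71 ± 0.25 (adjusted p = 5.58e-05). Supraspinatus tendon was thus lowest in both Pdgfd and Plau. Plat, the tissue-type activator known for the C chain, was at 134 CPM in Achilles, 129 in flexor, 110 in supraspinatus and 91.4 CPM in patellar tendon, with flexor minus patellar at 0.50 ± 0.15 (adjusted p = 0.0111). Plat was named after its values had been seen.

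Lrp1, a scavenger receptor that associates with PDGF receptors, was highest in flexor tendon at 1620 CPM and lowest in patellar tendon at 644 CPM (flexor minus patellar 1.33 ± 0.17, adjusted p = 2.24e-05). Nrp1, a co-receptor better known from VEGF signalling and from endothelial cells, ran the other way, at 78.8 CPM in flexor and 245 CPM in patellar tendon (-1.64 ± 0.20, adjusted p = 1.52e-05), as the endothelial markers did. In flexor minus patellar 4 of the 12 genes were higher and 4 lower, where 25.8% and 24.7% of all genes were, with a median of -0.10 against 0.03 over all genes. In patellar minus supraspinatus 4 were higher and 3 lower, where 28.8% and 27.5% of all genes were, with a median of -0.09 against 0.05.

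The list of receptor signalling and turnover held 34 genes, of which 32 were measured, Pdgfrb among them, and 29 differed among the tendons, where 75.6% of all genes did. Src, a kinase recruited by the activated receptors, was at 53.4 CPM in flexor tendon and between 12.5 and 14.1 CPM in the others, with flexor minus supraspinatus at 2.10 ± 0.20 (adjusted p = 2.28e-06). Plcg1, phospholipase C gamma, was likewise highest in the flexors, at 180.4 CPM against 62.5 to 85.9 CPM, and Gab1, a docking protein, at 29.1 CPM against 12.5 to 23.2 CPM. Pik3r1, the regulatory subunit of phosphoinositide 3-kinase, was highest in Achilles tendon at 194 CPM and lowest in supraspinatus tendon at 64.7 CPM (1.59 ± 0.15, adjusted p = 3.58e-06). In flexor minus supraspinatus 16 of the 32 genes were higher and 4 lower, against 23.4% and 24.3% of all genes, with a median of 0.29 against -0.03 over all genes. In patellar minus supraspinatus 16 were higher and 3 lower, against 28.8% and 27.5% of all genes, with a median of 0.40 against 0.05. In Achilles minus flexor 7 were higher and 13 lower, against 23.5% and 24.1%, with a median of -0.18 against 0.01. Flexor minus patellar had 10 higher and 9 lower, against 25.8% and 24.7%. Muscle marker RNA was highest in supraspinatus libraries throughout, and its part in these counts was not tested.

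**Figure D5:**
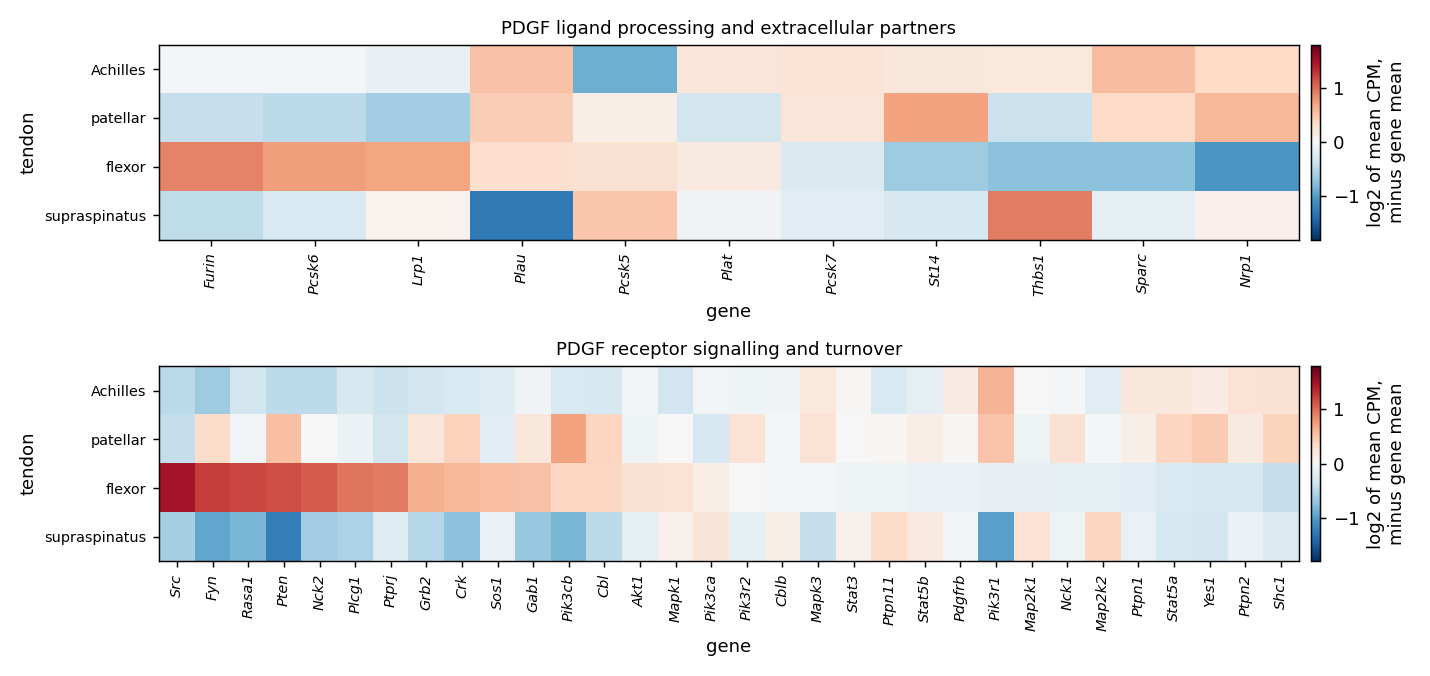
Mean CPM of 4 libraries per tendon on the log2 scale, centred on each gene's mean over the tendons, for measured genes of the extracellular and signalling lists. Genes are ordered by the flexor value, from Furin and Src at the high end to Nrp1 and Shc1 at the low end.

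Growth factors, PDGF among them, induce immediate early genes in cultured fibroblasts, and 15 such genes were listed, of which 10 differed among the tendons, no larger a share than the 75.6% of all genes. In Achilles minus flexor 11 were lower and 0 higher, where 24.1% and 23.5% of all genes were, with a median of -1.96. In flexor minus patellar 10 were higher and 0 lower, against 25.8% and 24.7% of all genes, with a median of 1.35. In the pairs with supraspinatus 7 were lower and 0 higher in Achilles tendon (24.7% and 25.4% of all genes) and 6 were higher and 0 lower in flexor tendon (23.4% and 24.3%). Srf, the factor that drives many of them, was at 18.9 CPM in flexor tendon and between 5.81 and 8.89 CPM in the others, and Jun at 308 CPM against 72.8 to 146.5 CPM. Egr1 was at 562 CPM in flexor against 84.9 to 133.5 CPM. Dusp1, a phosphatase that ends kinase signalling, was at 1310 CPM in flexor against 101 to 207 CPM. Other genes of the list had a high mean in supraspinatus tendon too, among them Fos and Atf3, both named after their values had been seen. Fos stood at 694 ± 637 CPM (SD) in flexor and 403 ± 515 CPM in supraspinatus tendon. Its hindlimb means were no more than 100.1 CPM. Atf3 stood at 76.3 ± 82.9 and 73.0 ± 84.8 CPM, with hindlimb means of no more than 14.0 CPM. These forelimb SDs were near or above the means. Achilles minus supraspinatus passed for Fos (adjusted p = 0.0201) and Atf3 (adjusted p = 0.0283). Patellar minus supraspinatus passed for Atf3 (adjusted p = 0.0348) but not for Fos (adjusted p = 0.0563). The levels of the immediate early genes and of the PDGF ligands were not tested against each other.

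In the authors' deposited table, 14 of the 36 values for the 6 genes in 6 pairs had an FDR under 0.05, against 14 here, and 12 were shared. The authors' deposited table called Pdgfa higher in Achilles than in flexor tendon (log2 fold change 0.34, FDR 0.0284) and than in supraspinatus tendon (0.31, FDR 0.0392), where the fit here gave 0.11 and 0.12. Conversely the authors' deposited table gave Pdgfra in Achilles minus flexor an FDR of 0.0771 and Pdgfb in Achilles minus supraspinatus an FDR of 0.0624. The largest difference between the log2 fold changes of the authors' deposited table and those here was 0.233, and the 3 Pdgfc calls and 4 Pdgfd calls were in both.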

How the data were processed

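RNA of 4 rat tendons was sequenced in 16 libraries, grouped by tendon from the labels. The deposited count table holds raw counts per Ensembl gene, and a second deposited table holds the authors' log2 fold changes and p-values with FDR. The submitters' processing notes name FastQC, HISAT2, edgeR and the build rn6. How reads were counted, with which annotation and whether by strand, is not given in the sources used here, so reads of a gene and an overlapping antisense gene may be mixed.

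Counts were filtered with filterByExpr (minimum count 10, minimum total 15), scaled by TMM and fitted over all 16 libraries with edgeR 4.0.16 (R 4.3.3), with tendon as the factor and 12 residual degrees of freedom. The quasi-likelihood test was used for all 4 tendons and for 6 pairs, with Benjamini-Hochberg adjustment over all genes and a threshold of 0.05. The procedure was tested on simulated data. Alternatives used DESeq2 1.42.0, limma-voom 3.58.1, other scalings and filters, a muscle covariate (mean log2 CPM, prior count 2, of the muscle markers), a replicate block and fits without single libraries. Library totals were 63397591 to 102491699 counts, and their number limits precision.

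The genes and lists were chosen with earlier results of these data known. Of 193 distinct listed symbols 182 were in the table. The values of 1 listed gene are not reported here. Named genes were the 6 members, Pdgfrb, up to 4 genes per pathway list with the smallest adjusted p among tendons and at least 5 CPM in the highest tendon, up to 3 genes per cell type list with the highest mean, and, for members spanning 2-fold or more, the 3 genes with the smallest root mean square difference of centred log2 CPM. Promoter sequences came from RefSeq (GRCr8).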

Additional observations from a re-analysis of the deposited data

How the results depend on the processing

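For the 6 PDGF genes, 42 values were recomputed in 1086 alternatives: 969 kept direction and side of the threshold, 43 lost the call, 15 gained it and 59 changed sign. Of the sign changes 1 touched a called value, Pdgfb in Achilles minus supraspinatus with the muscle covariate (0.026), and the smallest adjusted p among them was 0.0553. The causes were not tested.

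The count of the 6 genes called in Achilles minus patellar moved from 0 to 2 with DESeq2, 1 with limma-voom and 1 with libraries of the pair only, and the count of all genes from 874 to 1977 with DESeq2, 268 with libraries of the pair only and 1381 without Achilles 1 and patellar 1. With the muscle covariate the 6 genes gave 0 in Achilles minus supraspinatus, 1 in flexor minus supraspinatus and 0 in patellar minus supraspinatus, and all genes 1716 (from 8497), 5504 in flexor minus patellar (from 8560) and 1985 in patellar minus supraspinatus (from 9555). Leaving out 1 library at a time gave 4 to 5 of the 6 genes among tendons, 2 to 3 in Achilles minus flexor, 0 to 2 in Achilles minus patellar, 1 to 3 in Achilles minus supraspinatus, 3 to 4 in flexor minus patellar, 2 to 3 in flexor minus supraspinatus and 1 in patellar minus supraspinatus throughout. All genes called ran, in the same order, from 12402 to 13135, 7223 to 8501, 342 to 1415 (lowest without Achilles 2, highest without patellar 1), 7601 to 8826, 7542 to 8951, 6905 to 8602 and 8730 to 9938.

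Library totals without TMM moved the median of all genes by 0.41 in Achilles and patellar minus supraspinatus and by 0.34 in flexor minus supraspinatus, and the share of calls that were higher from 50.7% to 78.7%, 51.1% to 77.0% and 49.0% to 78.3%. Signs changed there for Pdgfc (0.39) and Pdgfra (0.16) in Achilles minus supraspinatus, Pdgfrl in flexor minus patellar (-0.065) and flexor minus supraspinatus (0.23), and Pdgfa (0.32), Pdgfc (0.24), Pdgfra (0.080) and Pdgfrl (0.30) in patellar minus supraspinatus. With the muscle covariate Pdgfa became -0.36 in flexor minus patellar and 0.74 in patellar minus supraspinatus. With at least 1 CPM in 8 libraries Pdgfa became -0.024 in flexor minus supraspinatus and Pdgfrl -0.033 in flexor minus patellar. With libraries of the pair only Pdgfc became 0.0077 in Achilles minus supraspinatus and Pdgfrl -0.027 in flexor minus patellar. Without Achilles 1 and patellar 1, Pdgfra became -0.083 in Achilles minus patellar, Pdgfc 0.0075 in Achilles minus supraspinatus, Pdgfrl -0.17 in flexor minus patellar and 0.019 in patellar minus supraspinatus, Pdgfa -0.033 in flexor minus supraspinatus and Pdgfb -0.12 in patellar minus supraspinatus.

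Leaving out 1 library changed the sign of uncalled values only. Over these fits Pdgfa ran from -0.092 to 0.29 in Achilles minus flexor, -0.074 to 0.31 in Achilles minus supraspinatus and -0.066 to 0.093 in flexor minus supraspinatus, Pdgfb from -0.12 to 0.14 in patellar minus supraspinatus, and Pdgfc from -0.057 to 0.080 in Achilles minus supraspinatus. Pdgfra ran from -0.10 to 0.22 in Achilles minus patellar, and Pdgfrl from -0.17 to 0.098 in flexor minus patellar, -0.23 to 0.093 in flexor minus supraspinatus and -0.25 to 0.070 in patellar minus supraspinatus.

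Libraries with the same replicate number correlated over 0.1 in 9 of 24 pairs (median 0.0322, range -0.21 to 0.37). The median for libraries with different numbers was -0.00956, and 8 of 16 libraries correlated best with their own number. These values do not settle whether the numbers pair the libraries. The main fit took no pairing because the labels do not state one. With a replicate block, 1 of the 6 genes was called in Achilles minus patellar, where 0 had been (Pdgfd, -0.62, adjusted p = 0.0368), Pdgfc became 0.0015 in Achilles minus supraspinatus, and no other call of the 6 genes changed.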

Other observations

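Relatives of the PDGF family, the VEGF ligands and receptors and the kinases of the same receptor class (10 genes), were read beside Pdgfra. Among the tendons 9 of the 10 differed, where 75.6% of all genes did. Kdr, the main VEGF receptor of endothelial cells, was at 183.7 ± 73.4 CPM (SD, n = 4) in patellar, 118 ± 32.0 in Achilles, 76.6 ± 33.8 in supraspinatus and 34.5 ± 7.11 CPM in flexor tendon. Flt1, another VEGF receptor, was at 97.2, 59.8, 45.6 and 38.6 CPM in the same order, and Kit, the receptor of stem cell factor, at 36.5, 25.9, 13.6 and 31.2 CPM. The endothelial marker sums were lowest in flexor tendon too, at 687 CPM on average, and their part in the Kdr and Flt1 levels was not tested. The ligand genes Vegfa and Vegfb, named after their values had been seen, were instead highest in flexor tendon, at 140 and 14.6 CPM. Elsewhere their means were 43.0 to 78.7 and 4.44 to 8.06 CPM. In flexor minus patellar 2 of the 10 genes were higher and 4 lower, against 25.8% and 24.7% of all genes.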
